A study of Mus musculus with 3 samples.

Results

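Open chromatin of a PDGFB-WT overexpression library was compared with that of a Control library, region by region, over 48238 regions in which both libraries had a called peak. These common regions were all merged regions that held a peak of both lists, out of 116306 merged regions of the 2 lists and 147229 over all 3 libraries of the series. Of the common regions, 30417 held enough reads to be compared. Both libraries are mouse single-cell ATAC-seq, in which open DNA in nuclei is cut by the Tn5 enzyme and cut ends are counted for each barcode. The series used in utero electroporation of piggyBac transposon plasmids, which places genes in cells of the embryonic brain, and its title ties PDGFB on chromatin to mutant IDH and chromosome instability. The PDGFB-WT library came from overexpression of PDGFB-WT, and the title of the other library gives only Control. Both carry the tissue label glioma, while the names of the deposited Control files call it Normal. The labels give no strain, age, time, promoter, IDH allele or number of animals for either library, and whether Control is a tumor or normal tissue is unclear, so a ratio may set tumor against tumor or tumor against normal tissue. There was 1 library a side, so no difference below has a replicate check, none was tested, and every interval covers counting error within these libraries only.

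PDGFB is a secreted ligand whose dimers bind the receptor kinases PDGFRA and PDGFRB. In the brain PDGFRA marks oligodendrocyte precursor cells (OPC), which divide in response to PDGF, and PDGFRB marks mural cells of vessels. Accessible chromatin at the starts of widely used genes is shared among most cell types, whereas accessible elements inside genes and between them differ more from one cell type to the next and hold many enhancers.

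The libraries differed in depth and number of cells. PDGFB-WT held 7441 barcodes with at least 200 counts (of 7511), with a median of 821 counts, and Control held 2226 (of 2267), with a median of 13054. The common regions took 96.7% of the 7008951 counts of PDGFB-WT and 81.8% of the 31588784 of Control, and Control held 3.76 times as many fragments in them. Of the kept barcodes, 22 sequences occurred in both libraries. Levels are given as CPM, the count scaled to 1000000 within the common regions of its library. A ratio is the log2 of PDGFB-WT CPM over Control CPM less the median of all compared regions, which was -0.05 before it was taken off. A region was compared where PDGFB-WT and Control thinned at random to the PDGFB-WT total together held at least 60 fragments, and it is called higher or lower where the ratio passes 2-fold.

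Promoter sequences show where the comparison moved at gene starts and inside genes. The 6 windows below were chosen after their values were seen, as cases in which a start region or an internal start of a gene stood away from the median. Each runs 5′ to 3′ on the gene's strand from 250 bases before to 50 after a RefSeq start (build GRCm38.p6), with GC boxes (GGGCGG, either strand) in capitals. The 3 windows that were higher in PDGFB-WT come first, and the 3 that were lower follow.
Myt1 internal start, chr2:181796057-181796356, plus strand: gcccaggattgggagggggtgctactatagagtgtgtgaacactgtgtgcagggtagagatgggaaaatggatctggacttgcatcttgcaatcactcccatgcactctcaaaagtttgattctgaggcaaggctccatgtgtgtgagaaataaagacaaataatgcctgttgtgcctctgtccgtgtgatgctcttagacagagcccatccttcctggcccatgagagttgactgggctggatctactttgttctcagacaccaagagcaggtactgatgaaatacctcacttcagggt
Mlc1 internal start, chr15:88978504-88978803, minus strand: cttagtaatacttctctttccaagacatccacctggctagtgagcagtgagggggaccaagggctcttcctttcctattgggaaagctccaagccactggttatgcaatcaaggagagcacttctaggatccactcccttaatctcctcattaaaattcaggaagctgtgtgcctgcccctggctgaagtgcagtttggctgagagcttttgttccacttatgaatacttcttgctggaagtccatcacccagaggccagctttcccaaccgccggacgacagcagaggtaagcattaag
Neu4 start, chr1:94020243-94020542, plus strand: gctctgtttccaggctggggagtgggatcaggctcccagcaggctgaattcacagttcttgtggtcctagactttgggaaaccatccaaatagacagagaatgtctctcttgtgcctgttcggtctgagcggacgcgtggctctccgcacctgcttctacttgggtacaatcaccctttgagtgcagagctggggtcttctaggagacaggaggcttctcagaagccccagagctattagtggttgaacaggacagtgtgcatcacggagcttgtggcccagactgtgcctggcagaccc
Cdkn1a internal start, chr17:29093519-29093818, plus strand: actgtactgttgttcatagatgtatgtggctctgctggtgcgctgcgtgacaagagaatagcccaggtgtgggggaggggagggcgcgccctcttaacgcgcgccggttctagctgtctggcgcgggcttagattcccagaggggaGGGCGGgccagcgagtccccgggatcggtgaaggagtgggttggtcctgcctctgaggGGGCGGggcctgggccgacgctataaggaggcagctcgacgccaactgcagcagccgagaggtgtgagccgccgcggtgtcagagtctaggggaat
Bbc3 internal start, chr7:16310011-16310310, plus strand: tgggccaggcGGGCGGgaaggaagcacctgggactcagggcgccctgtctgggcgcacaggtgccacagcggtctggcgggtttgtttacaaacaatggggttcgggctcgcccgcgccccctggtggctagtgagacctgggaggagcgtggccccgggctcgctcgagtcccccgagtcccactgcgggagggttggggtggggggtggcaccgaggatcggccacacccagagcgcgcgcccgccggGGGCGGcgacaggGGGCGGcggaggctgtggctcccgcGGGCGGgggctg
Ermn start, chr2:58052815-58053114, minus strand: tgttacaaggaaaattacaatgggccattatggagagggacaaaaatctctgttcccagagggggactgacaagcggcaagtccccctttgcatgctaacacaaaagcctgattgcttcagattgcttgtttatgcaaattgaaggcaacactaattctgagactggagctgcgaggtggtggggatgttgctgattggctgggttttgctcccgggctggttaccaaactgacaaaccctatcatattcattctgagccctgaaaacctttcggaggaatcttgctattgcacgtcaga

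The region over the internal start of Myt1, a zinc finger factor of oligodendrocyte lineage cells, stood at 26.6 CPM in PDGFB-WT and 2.82 in Control (log2 ratio 3.29, 95% exact interval 2.66 to 3.81). It rested on 91 fragments from 87 barcodes in PDGFB-WT and 38 fragments from 29 barcodes in Control. The internal start of Mlc1, a membrane protein of astrocyte end feet, stood at 41.9 and 15.9 CPM (ratio 1.45, 1.11 to 1.73). The start of Neu4, a sialidase used as an OPC marker, had a ratio of 3.50 (2.73 to 4.16). These 3 windows held 1, 3 and 6 CpG dinucleotides and no GC box. The internal start of Cdkn1a, which encodes the cell cycle inhibitor p21, stood at 18.9 CPM in PDGFB-WT and 35.2 in Control (ratio -0.85, -1.23 to -0.47), short of 2-fold. That of Bbc3, which encodes the apoptosis protein PUMA, stood at 16.8 and 37.2 CPM (ratio -1.09, -1.41 to -0.64). Both windows are CpG-rich, with 23 and 30 CpG and with 2 and 4 GC boxes. The start of Ermn, which encodes the myelin protein ermin, stood at 7.82 and 25.5 CPM (ratio -1.65, -2.23 to -1.07) with 5 CpG and no GC box.

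Promoter windows that were higher in PDGFB-WT were poorer in CpG than all windows in compared regions. A RefSeq window lay in a compared region 10276 times, of which 205 lay in regions higher and 66 in regions lower past 2-fold. The median CpG count was 23 over all 10276 windows, 13 in the higher windows and 20 in the lower ones. Among the 351 windows with at most 5 CpG, 42 were higher and 16 lower, and among the 6052 with over 20 CpG, 61 and 31 were. Of 7 motifs searched on both strands, the ETS motif CCGGAAG was in 20.4% of all compared windows, 5.37% of the higher and 3.03% of the lower ones. The GC box was in 71.1%, 54.6% and 66.7%. The AP-1 motif TGANTCA was in 3.93% of all compared windows, 4.88% of the higher and 12.1% of the lower ones (8 of 66). The E-box CAGCTG was in 14.3%, 22.0% and 21.2%, the homeobox motif TAATTA in 1.97%, 5.85% and 4.55%, and the SOX motif ACAAAGG in 3.87%, 5.37% and 7.58%. The nuclear receptor motif AGGTCA was in 10.3%, 5.37% and 18.2%. Over all 21263 RefSeq windows these shares were 11.6% (ETS), 46.2% (GC box), 6.99% (AP-1), 15.6% (E-box), 4.53% (homeobox), 5.39% (SOX) and 14.7% (nuclear receptor). A match says only that the letters are present. The windows were not matched for accessibility, and calls in both directions were most frequent where it was low. Among gene-end regions in the lowest of 5 groups by mean CPM, 14.8% were higher past 2-fold and 2.81% lower. In the highest group 0.0196% were higher and 0.0785% lower. How far level accounts for the CpG and motif shares was not tested.

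Within the common regions, the largest part of the difference lay away from gene ends. Over all compared regions, 3107 (10.2%) were higher in PDGFB-WT past 2-fold and 836 (2.75%) were lower. Regions within 1000 bp of a gene end were the least different, with 341 higher (2.85%) and 139 lower (1.16%) of 11947. Gene-body regions, farther inside a gene, held 1566 higher (14.9%) and 380 lower (3.61%) of 10535. Intergenic regions held 1200 higher (15.1%) and 317 lower (3.99%) of 7935. With Control thinned to the PDGFB-WT depth the totals were 3102 and 876. The whole exact interval lay past 2-fold in 1281 of the higher and 103 of the lower regions. A sum over barcodes cannot tell more cells of a type from more open chromatin in each cell. Scaled over all peaks of each library, with no median taken off, the totals were 4098 higher and 481 lower. A common region needed a peak in both libraries, and 84.2% of PDGFB-WT peaks but 45.2% of Control peaks lay in common regions. Regions open in Control with no peak in PDGFB-WT were thus left out. The balance of higher and lower calls here, by distance, by window, by gene and by list holds for common regions only. How far the need for a peak in both libraries shaped that balance was not tested.

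**Figure D1:**
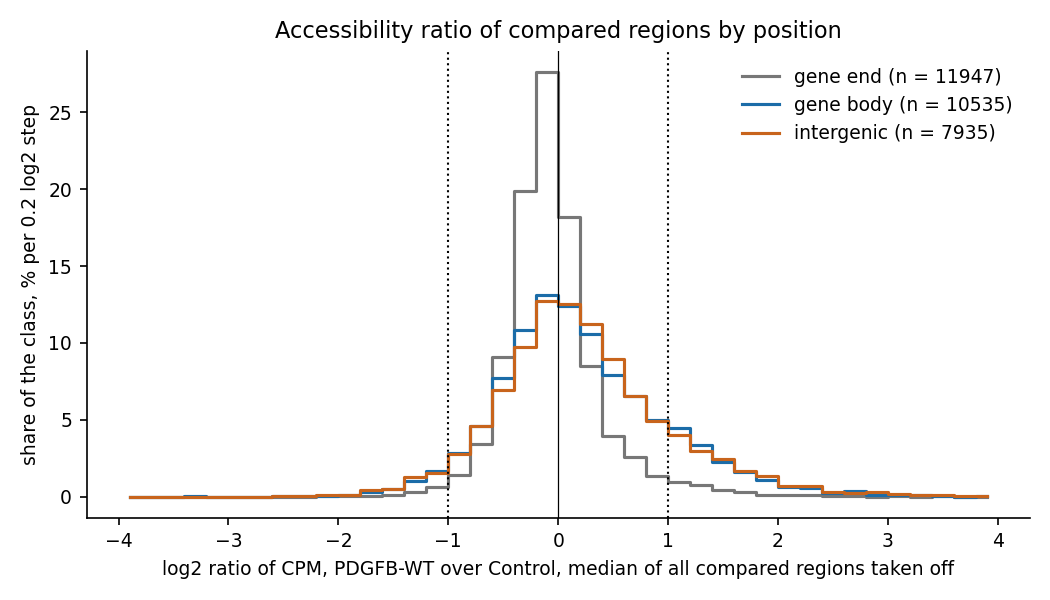
Distribution of the log2 ratio of PDGFB-WT over Control in compared regions, as the share of each class per 0.2 step, with dotted lines at 2-fold. Gene-end regions gather close to the median, whereas gene-body and intergenic regions have a long right tail, where 14.9% and 15.1% lie past 2-fold.

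Gene-body and intergenic regions were shifted upward as classes. The median ratio was -0.09 at gene ends, 0.11 in gene bodies and 0.15 between genes, and the SD over regions was 0.44, 0.76 and 0.79. Gene ends took 53.4% of the common-region counts in PDGFB-WT and 58.7% in Control. Regions at known gene starts had a median of -0.10 and those at known 3′ ends 0.07. Gene-body regions that hold an internal start (1041, or 9.88% of gene-body regions compared) had a median of -0.07, and the other gene-body regions 0.15.

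The difference grew with distance from gene ends. The median ratio was -0.09 within 1 kb, 0.01 at 1 to 5 kb, 0.07 at 5 to 20 kb, 0.22 at 20 to 100 kb and 0.56 beyond 100 kb. The share of regions higher past 2-fold went from 2.85% within 1 kb through 6.94%, 11.6% and 18.7% to 32.7% beyond 100 kb, and the share lower from 1.16% to 4.76%. Regions beyond 100 kb took 5.98% of counts in PDGFB-WT and 4.26% in Control. With each barcode weighed alike, so that barcodes with many counts do not set the sum, the medians went from -0.21 within 1 kb to 0.47 beyond 100 kb.

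**Figure D2:**
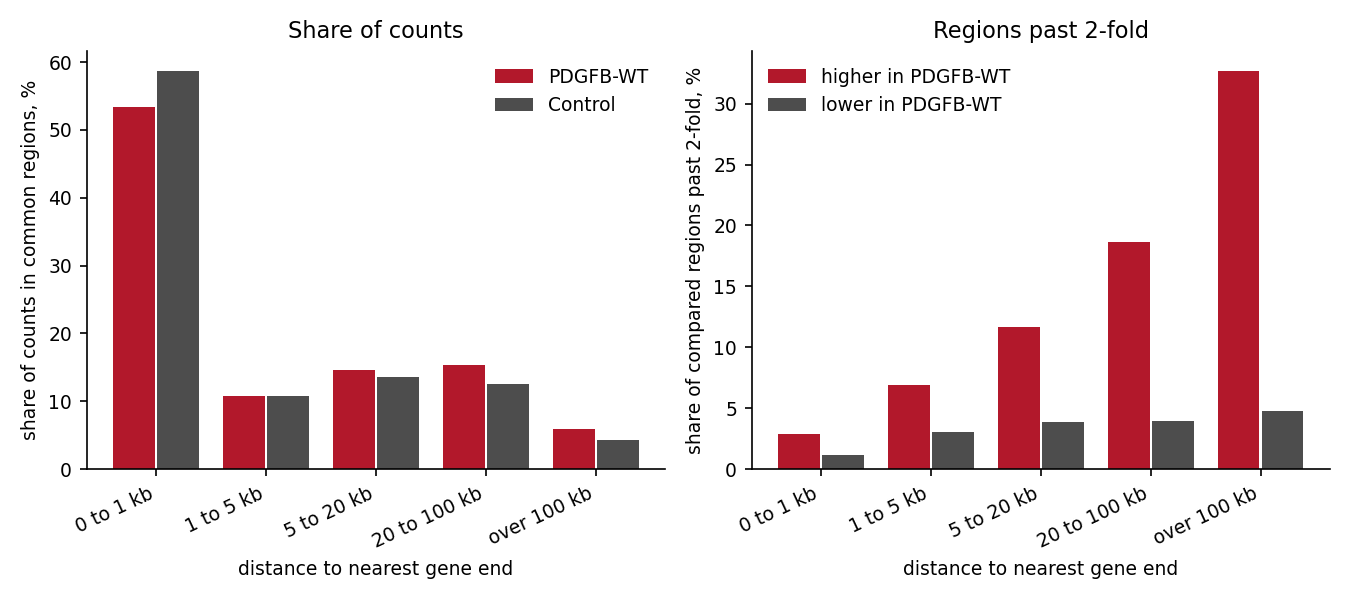
Left, share of common-region counts by distance of the region to the nearest gene end, in percent, for PDGFB-WT and Control. Right, share of compared regions past 2-fold in each direction. The PDGFB-WT share of counts is below that of Control within 1 kb (53.4% against 58.7%) and above it beyond 100 kb (5.98% against 4.26%), and 32.7% of the farthest regions are higher past 2-fold.

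Calls were most frequent among regions of low accessibility, so position and level were looked at together, in 5 groups of equal size by mean CPM. In the group with the lowest mean CPM (6.56 to 10.7), 21.1% were higher past 2-fold and 2.89% lower. In the group with the highest mean CPM, 0.345% were higher and 0.427% lower. Within the lowest group the share higher was 14.8% at gene ends, 23.4% in gene bodies and 20.6% between genes. In the next to highest group it was 1.21%, 6.35% and 7.90%. In each of the 5 groups the share higher was smallest at gene ends.

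Single elements illustrate the size of these ratios. The highest intergenic region lay at chr17:9300726-9301731, 292 kb from its nearest gene, 1700010I14Rik, with 18.3 CPM in PDGFB-WT and 1.20 in Control (ratio 3.98, 3.16 to 4.86). A region 19.3 kb from Tcf7l2, the Wnt effector that is also used in differentiating oligodendrocytes, stood at 29.4 and 2.71 CPM (chr19:55952993-55953935, ratio 3.49, 2.87 to 4.01). Among the highest gene-body regions were a region in Alk, a receptor tyrosine kinase, with 16.5 and 1.63 CPM (ratio 3.40, 2.66 to 4.17), and a region in Adgrl3, a latrophilin of synapses, with 17.9 and 1.55 CPM (3.58, 2.74 to 4.23). The others among the 6 highest gene-body regions lay in Ccdc57, Fhit, Parp8 and Lrrc4c, at 3.39 to 3.84. On the lower side, a region in Gphn, which encodes the inhibitory synapse scaffold gephyrin, held 31 fragments in PDGFB-WT and 640 in Control (chr12:78350533-78351444, ratio -2.41, -2.97 to -1.88). A region 2.19 kb from Grb2, the adaptor that links receptor kinases to RAS, stood at 3.84 and 18.3 CPM (ratio -2.20, -3.01 to -1.35). A region in Eng, the endothelial TGF-beta coreceptor endoglin, stood at 4.28 and 20.2 CPM (ratio -2.19, -3.06 to -1.45). The lowest of all named regions, in Magi2, rested on 5 fragments in PDGFB-WT and 195 in Control (ratio -3.29, -4.96 to -2.07).

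Counts were then summed per gene over its gene-body regions and over the intergenic regions within 100 kb to which it was nearest, with gene ends left out. Of 6351 genes with at least 2 such regions and 60 fragments, 455 (7.16%) were higher in PDGFB-WT past 2-fold and 94 (1.48%) lower, relative to the all-gene median. That median was 0.21 on the log2 scale before it was taken off, so the balance of calls depends on it. With no median taken off 762 genes were higher and 28 lower, with the gene-end median taken off 1066 and 16, and scaled over all own peaks 1270 and 10. With barcodes weighed alike 196 were higher and 105 lower. The exact interval lay wholly past 2-fold in 163 of the 455 and 17 of the 94. All gene and list ratios that follow are relative to the all-gene median and rest on common regions only. How far the need for a peak in both libraries shaped the balance of gene and list calls was not tested. Ratios of single regions, such as a gene's start, stay relative to the region median, which was -0.05 before it was taken off. A gene sum and a single region thus have different zeros, and only their CPM compare directly. Of each list the 2 highest and 2 lowest compared members were named by rule, together with the PDGF ligands and receptors, Olig2, Sox10, Gfap, Idh1 and Idh2, and other members given below were chosen after their values were seen.

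Among the 4233 genes with at least 3 such regions, the 15 with the highest summed ratios included neural adhesion and matrix synthesis genes. Chl1, a neural cell adhesion molecule, stood at 125 and 25.1 CPM over 5 regions (2.11, 1.88 to 2.31). Cwc22, a splicing factor, stood at 174 and 42.7 CPM over 10 regions (1.82, 1.68 to 2.01), and its own start was nearly equal, at 328 and 306 CPM (0.15, 0.05 to 0.24). Ratios of Chsy3 and Chst9, enzymes of glycosaminoglycan synthesis and sulfation, were 1.95 (1.51 to 2.41) and 1.98 (1.64 to 2.43). Zfp521, a zinc finger factor, stood at 58.3 and 13.7 CPM (1.88, 1.60 to 2.18). Others among the 15 highest were Rpusd4, Pak3, Ldb2, Tmem100, Rab27b, Gm715, Shisa6, Lhfp and Pde1a, at 1.76 to 2.40. In Chsy3, Ldb2, Rab27b, Gm715, Shisa6, Lhfp and Pde1a no single region held enough fragments to be compared, so only their sums were. Rpusd4 (751 and 124 CPM, 2.40) and Pak3 (252 and 42.1 CPM, 2.37) each rested on a single region with 93.1% and 92.0% of the counts, and without it stood at 0.87 and 0.95. The other 13 of the 15 stayed past 2-fold without their leading region, and all 15 did with barcodes weighed alike.

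The 15 lowest of the same genes rested more on single regions. Eng had 17.9 CPM in PDGFB-WT and 43.8 in Control over 3 gene-body regions (ratio -1.50, -1.87 to -1.10). Csf2ra, a receptor subunit for the myeloid growth factor GM-CSF, stood at 223 and 475 CPM (-1.30, -1.41 to -1.19). Of its counts 75.2% came from 1 region, and the ratio was -0.82 without it. Errfi1, an inhibitor of EGFR signalling, stood at 21.2 and 40.6 CPM (-1.14, -1.48 to -0.77). Arhgap45, a GTPase activating protein of blood cells, had a ratio of -1.45 (-1.81 to -1.02). Gtpbp4, a ribosome biogenesis GTPase, had the lowest ratio of these (281 and 713 CPM, -1.55, -1.67 to -1.47), but 98.2% of its counts came from 1 region and the ratio was 0.12 without it. Without their leading region the ratios of Cdk8 (1.06), Camk1d (0.47), Zc3h7a (0.13) and Myl12b (0.06) also changed sign from -1.16, -1.21, -1.24 and -1.28. The remaining genes of the 15 lowest were Btbd9, Tcte2, Trappc12, Sema6b, Npsr1 and Nkain1, at -1.41 to -1.15. Only 6 of the 15 stayed past 2-fold without the leading region, and 9 did with barcodes weighed alike.

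Some genes differed over many regions at once. The genes in this paragraph were chosen after their values were seen, by their number of regions past 2-fold. Ntrk2, the receptor of the neurotrophin BDNF, had 10 of 11 compared regions higher past 2-fold, spread over its body and beyond it. The sum stood at 292 and 110 CPM (1.20, 1.08 to 1.31), and the start at 20.5 and 12.4 CPM (0.78 from the region median). A region 285 kb inside Ntrk2 stood at 20.2 CPM in PDGFB-WT and 5.11 in Control (2.04, 1.55 to 2.54). Xylt1, which starts glycosaminoglycan chains on proteoglycans, had 7 of 7 higher (240 and 83.2 CPM, 1.32, 1.17 to 1.43). Tnr, the matrix protein tenascin-R, had 5 of 5 higher (207 and 65.5 CPM, 1.45, 1.32 to 1.61), and its start was also higher (18.6 and 5.22 CPM, 1.88, 1.44 to 2.45). Asic2, an acid-sensing channel, had 8 of 12 higher (224 and 97.6 CPM, 0.99, 0.85 to 1.11). On the lower side Cxxc5, a CpG-binding regulator, had 4 of 10 lower and none higher (180 and 279 CPM, -0.84, -0.93 to -0.69). Atf3 had 3 of 5 lower and Kif13b, a kinesin, 3 of 3 (38.7 and 71.5 CPM, -1.10, -1.32 to -0.80).

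**Figure D3:**
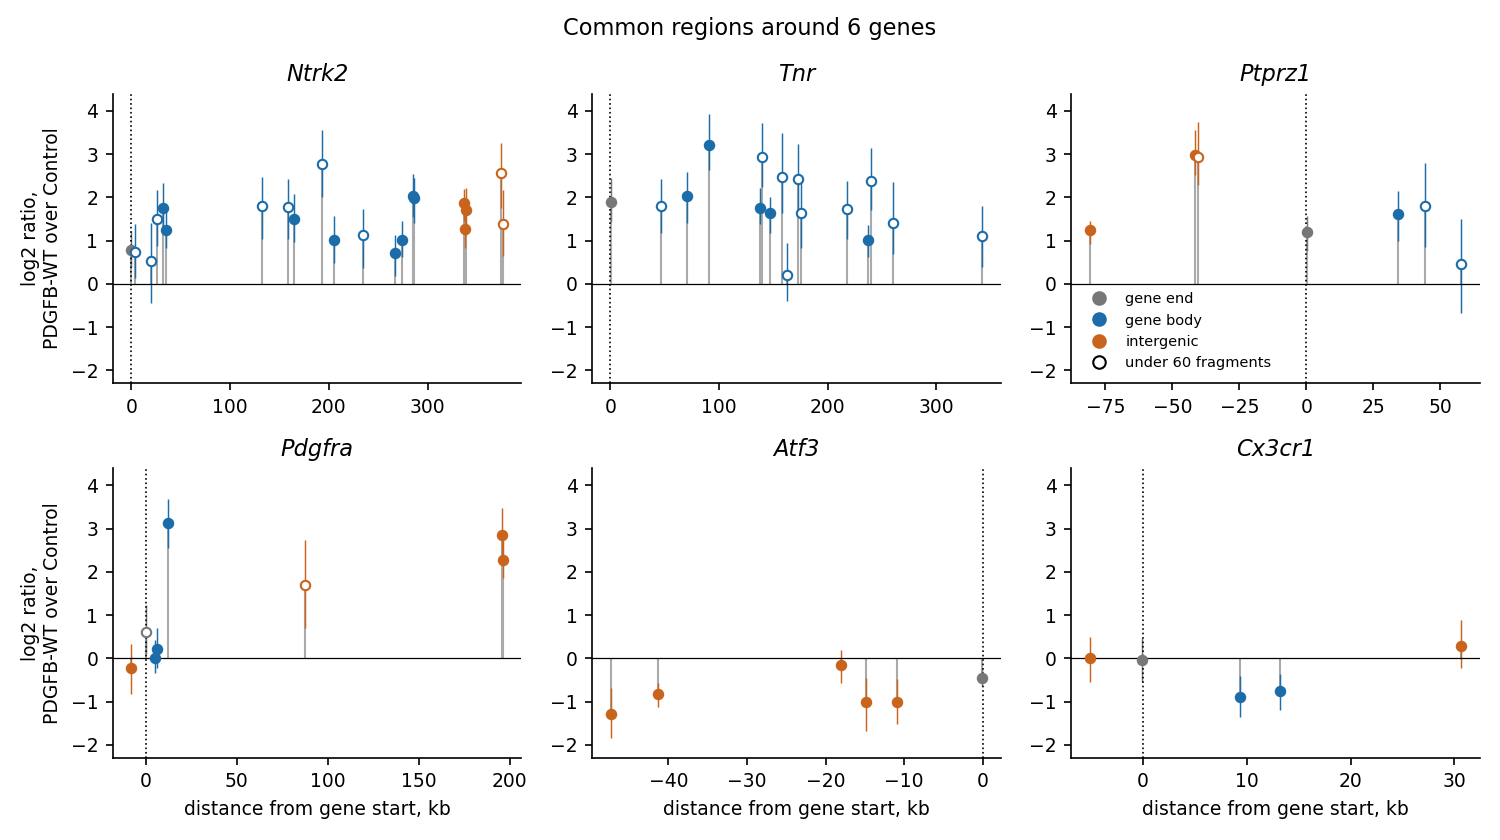
Log2 ratio of PDGFB-WT over Control for each common region of 6 genes against its distance from the gene start in kb, with bars for the 95% exact counting interval and open circles for regions under the minimum of 60 fragments. All compared regions of Ntrk2, Tnr and Ptprz1 lie above 0, Pdgfra is high in 1 gene-body region (3.14) and at its distal pair, and all 6 regions of Atf3 lie below 0.

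Around the PDGF genes, Pdgfb and the 2 receptor loci differed in direction. Pdgfb, whose coding sequence is overexpressed in PDGFB-WT, had 30.4 CPM over its distal and gene-body regions in PDGFB-WT and 39.4 in Control (ratio -0.58, -0.94 to -0.32). The 2 gene-end regions, both at the same end of the gene, were lower as well, at 11.7 and 21.6 CPM (-0.84) and 11.7 and 18.8 CPM (-0.63). The labels do not say whether the transposon sequence would map to this locus. Pdgfa stood at 91.3 and 100 CPM (-0.35, -0.46 to -0.11), and ran from -0.39 to 0.10 over the settings of the closing section. Pdgfc stood at 14.8 and 14.6 CPM (-0.19, -0.69 to 0.22). Pdgfra stood at 72.9 and 48.9 CPM (0.37, 0.16 to 0.58) and Pdgfrb at 26.1 and 17.3 (0.39, 0.02 to 0.73).

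The Pdgfra locus held single elements far above that sum. A region 12.2 kb inside the gene stood at 24.6 CPM in PDGFB-WT and 2.90 in Control (chr5:75163030-75164014, ratio 3.14, 2.55 to 3.69). The pair of regions 196 kb from its start, beyond the 100 kb limit of the sum, stood at 16.5 and 2.36 CPM (2.86, 2.21 to 3.48) and 26.6 and 5.73 CPM (2.27, 1.86 to 2.76). The 2 regions 4.91 and 5.99 kb inside the gene were at 0.00 and 0.22. These elements were picked out after their values were seen.

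Genes of PDGF signalling as a list were close to all genes, with 7 of 16 compared members above 0, a list median of -0.17 and none past 2-fold. Among the lowest was the ERK kinase gene Mapk3 (32.0 and 44.0 CPM, -0.67, -1.01 to -0.42). Map2k1, the kinase upstream of ERK, was highest (22.9 and 14.1 CPM, 0.49, 0.11 to 0.88). Feedback regulators and ETS targets of the RAS-ERK pathway had a median of -0.11, with 5 of 13 above and none past 2-fold. The ETS factor Etv4 stood at 63.2 and 39.5 CPM (0.47, 0.24 to 0.70) and the ERK inhibitor Spry1 at 24.3 and 33.2 (-0.66, -1.01 to -0.33).

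Over distal and gene-body regions, AP-1 factor genes were lower in PDGFB-WT in every compared member. AP-1 is the Fos, Jun and ATF dimer that is induced by growth signals and stress. The list median was -0.83, no member of 9 (0 of 9) lay above 0, and 3 were lower past 2-fold, against 1.48% of all genes. Junb stood at 21.5 CPM in PDGFB-WT and 39.9 in Control (-1.10, -1.41 to -0.71) over 2 intergenic regions, and at -0.44 without the leading one. Its gene-end regions held more counts and were mixed, at 56.5 and 46.7 CPM (0.33), 95.6 and 90.6 (0.13) and 59.0 and 77.6 (-0.34). Atf3 stood at 82.8 and 148 CPM (-1.05, -1.24 to -0.88), and its start at 69.1 and 97.6 (-0.45, -0.65 to -0.25). Fos, with 9 distal regions, stood at 368 and 444 CPM (-0.48, -0.58 to -0.40), and its start at 105 and 103 CPM (0.08 from the region median). Jun had a ratio of -0.44 (-0.69 to -0.08), and of 0.15 with barcodes weighed alike. The list median stayed at or below -0.63 with barcodes weighed alike (-0.63) and when each region was set against others of its class, distance and accessibility (-0.64).

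OPC marker genes were higher in PDGFB-WT, with a list median of 0.29 and 3 of 13 compared members past 2-fold, against 7.16% of all genes, and 10 of the 13 lay above 0. The summed level over the 13 compared of 18 markers was 1441 CPM in PDGFB-WT and 829 in Control. Of the 3 members past 2-fold, Tnr and Ptprz1 (116 and 37.0 CPM, 1.44, 1.24 to 1.62) are matrix and proteoglycan genes. The other, Xylt1, encodes an enzyme of proteoglycan synthesis. A region 41.5 kb upstream of Ptprz1, a receptor phosphatase, stood at 27.7 and 3.68 CPM (2.97, 2.51 to 3.55). Olig2, a lineage factor of OPC and of gliomas, stood at 123 and 58.7 CPM (0.86, 0.70 to 1.04). Its start was near equal (27.0 and 27.3 CPM, 0.04), while regions 33.8 kb upstream (47.8 and 16.0 CPM, 1.63, 1.33 to 1.92) and 8.12 kb downstream (30.5 and 8.59 CPM, 1.88, 1.49 to 2.27) were higher. Sox10, which acts in the whole oligodendrocyte lineage, was not higher (50.8 and 53.3 CPM, -0.28, -0.46 to 0.01). Cspg4, the NG2 proteoglycan, stood at 105 and 75.1 CPM (0.28, 0.11 to 0.46). Without each gene's leading region the OPC median was 0.10.

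Transcription factors of the SOX and glial bHLH families had a median of 0.02, with 10 of 20 above, so that the family as a whole did not stand apart. Within it Sox5 (116 and 42.8 CPM, 1.23, 1.04 to 1.41) and Sox6 (155 and 79.5 CPM, 0.75, 0.60 to 0.90) were high. Both are SOXD factors and regulators of OPC and chondrocyte programs. Sox13, also a SOXD factor (89.4 and 114 CPM, -0.56, -0.71 to -0.36), and the E protein Tcf4 (277 and 322 CPM, -0.42, -0.49 to -0.29) were lowest. NFI, RFX and nuclear receptor factors had a median of 0.20, with 11 of 16 above and 1 past 2-fold, a share close to the 7.16% of all genes. Rorb (34.2 and 14.2 CPM, 1.06, 0.69 to 1.37), Thrb (72.0 and 31.3 CPM, 0.99, 0.76 to 1.22) and Rora (244 and 120 CPM, 0.82, 0.69 to 0.93) led, and Nfic (196 and 250 CPM, -0.55, -0.67 to -0.43) was lowest. The median of this list was -0.10 with barcodes weighed alike.

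Astrocyte markers were higher, with a median of 0.48, 14 of 16 above and 5 past 2-fold (7.16% of all genes were), and a summed level of 1042 CPM in PDGFB-WT and 669 in Control. Aqp4, the water channel of astrocyte end feet, stood at 39.1 and 11.4 CPM (1.57, 1.20 to 1.89), and F3, tissue factor, had a ratio of 1.45 (1.11 to 1.81). Slc4a4, a bicarbonate transporter, had 7 of 7 compared gene-body regions above the region median (0.61 to 1.64) and 147 and 70.3 CPM in all (0.85). Gfap, the astrocyte filament gene, was nearly equal over its distal and gene-body regions (33.3 and 27.7 CPM, 0.06, -0.22 to 0.39), while a region upstream of its start, within 1000 bp and so classed with the gene end, stood at 27.3 and 5.53 CPM (2.36, 1.89 to 2.81). S100b (26.7 and 29.5 CPM, -0.35) and Slc7a10 (41.3 and 44.5 CPM, -0.32) were lowest. With barcodes weighed alike the astrocyte median was 0.18. Neural progenitor genes had a median of 0.20, with 9 of 11 above, with Hopx among the highest (67.3 and 27.9 CPM, 1.06, 0.84 to 1.32), and -0.13 with barcodes weighed alike. Nes, the progenitor filament nestin, stood at 22.0 and 29.4 CPM (-0.63, -1.01 to -0.29), and ran from -1.26 to 0.36 over the settings of the closing section.

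Receptor kinases other than the PDGF receptors had a median of 0.32, with 10 of 17 above and 3 past 2-fold, against 7.16% of all genes. Those 3 were the axon guidance receptor Epha4 (49.4 and 16.7 CPM, 1.36, 1.10 to 1.69), Ntrk2 and the NT3 receptor Ntrk3 (46.0 and 18.8 CPM, 1.09, 0.77 to 1.36). Egfr stood at 54.2 and 27.6 CPM (0.76). Axl (22.3 and 29.1 CPM, -0.60, -0.95 to -0.22) and Erbb3 (-0.52, -0.91 to -0.06) were lowest. Erbb3 ran from -0.55 to 0.50 over the settings of the closing section. With Control thinned to the PDGFB-WT depth the list median was 0.15.

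Brain matrix genes had a median of 0.46, with 11 of 15 above and 4 past 2-fold, against 7.16% of all genes, and share Ptprz1, Tnr, Bcan and Vcan with the OPC list. Hapln1, a link protein of hyaluronan nets, was highest (58.7 and 16.8 CPM, 1.60, 1.32 to 1.88), and the net proteoglycan Acan stood at 15.3 and 5.92 CPM (1.17, 0.68 to 1.70). Cd44, the hyaluronan receptor of mesenchymal-state glioma, was lowest (35.9 and 53.1 CPM, -0.78, -1.06 to -0.50).

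Synapse and neuronal channel genes had the highest list median, 0.68, with 9 of 11 above and 2 past 2-fold, against 7.16% of all genes. Syt1, the calcium sensor of synaptic vesicles, stood at 27.2 and 10.1 CPM (1.22, 0.83 to 1.62) and the presynaptic adhesion gene Nrxn3 at 126 and 53.4 (1.03, 0.87 to 1.21). The glutamate receptor genes Grin2b (0.94, 0.71 to 1.18) and Gria2 (0.91, 0.58 to 1.20) were close behind, and Dlg4, the PSD-95 scaffold, was lowest (109 and 120 CPM, -0.34, -0.47 to -0.15). The list median was 0.49 with barcodes weighed alike. Inhibitory neuron markers had a median of 0.29, with 7 of 10 above, led by Reln (19.3 and 5.30 CPM, 1.66, 1.14 to 2.14). Excitatory neuron markers had a median of -0.17 over 6 members, of which the lowest was Neurod1 (-0.38) and the highest Rorb.

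**Figure D4:**
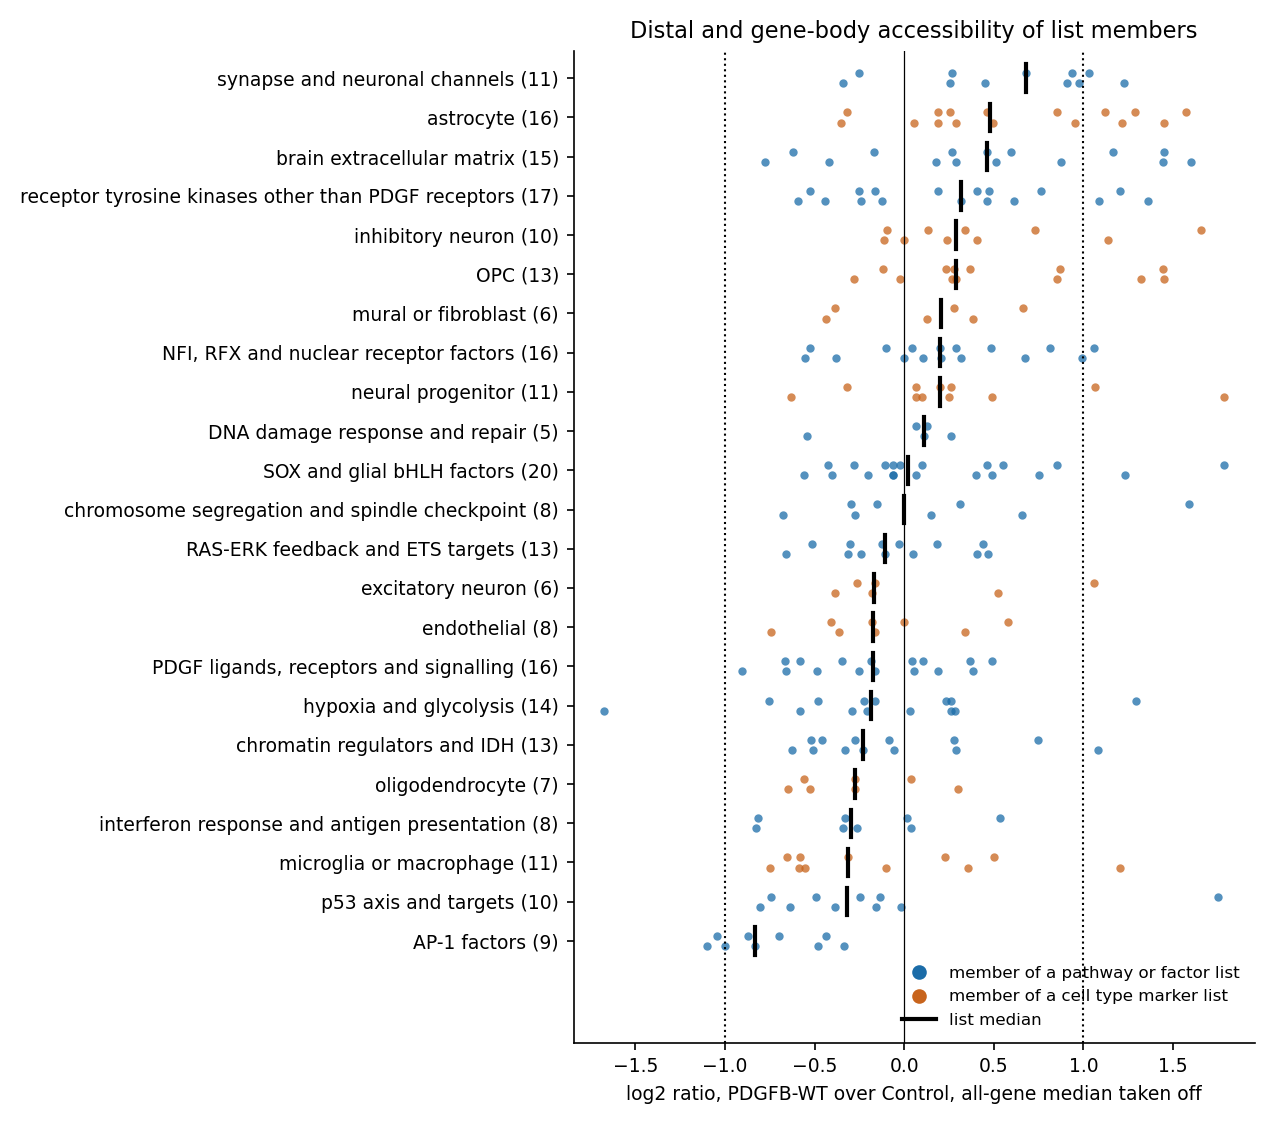
Log2 ratio of PDGFB-WT over Control of each compared member of 23 lists, over summed distal and gene-body regions and relative to the all-gene median, with black bars for list medians, dotted lines at 2-fold and the number compared in brackets. All 9 AP-1 factors lie below 0, and the synapse list has the highest median (0.68).

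Markers of microglia or macrophages had a median of -0.32, with 4 of 11 above 0, and the sign turned under 3 alternatives, to 0.08 with barcodes weighed alike, 0.04 with the gene-end median taken off and 0.13 scaled over all own peaks. The summed level over the 11 compared of 18 markers was 597 CPM in PDGFB-WT and 595 in Control. Cx3cr1, the fractalkine receptor, stood at 50.6 and 73.6 CPM (-0.75, -0.97 to -0.50), and its start at 11.5 and 12.3 CPM (-0.04 from the region median). The integrin gene Itgam stood at 22.3 and 30.3 CPM (-0.65, -1.05 to -0.32). Sall1, a microglial identity factor also used in neural progenitors, was highest (52.1 and 19.5 CPM, 1.21, 0.92 to 1.46). Interferon and antigen presentation genes had a median of -0.30, with 3 of 8 above, and 0.06 and 0.15 under the last 2 of those alternatives. The class II genes Cd74 (35.3 and 54.1 CPM, -0.82, -1.06 to -0.50) and H2-Aa (32.5 and 49.5 CPM, -0.82, -1.14 to -0.54) were lowest, and the class II activator Ciita was highest (24.1 and 14.4 CPM, 0.53, 0.11 to 0.89).

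Oligodendrocyte markers had a median of -0.28, with 2 of 7 above, and 0.08 with the gene-end median taken off and 0.17 scaled over all own peaks. Mog stood at 46.2 and 62.8 CPM (-0.65, -0.91 to -0.41), and Mbp, the myelin basic protein, at 166 and 211 (-0.56, -0.70 to -0.44). The summed level over the 7 compared of 18 markers was 458 CPM in PDGFB-WT and 523 in Control. Mobp was highest, at 34.1 and 24.0 CPM (0.30, 0.01 to 0.63). Endothelial markers had a median of -0.17 over 8 members, with the VEGF receptor gene Flt1 lowest (22.9 and 33.2 CPM, -0.75, -1.05 to -0.35) and Erg highest (55.5 and 32.2 CPM, 0.58, 0.34 to 0.83). Mural or fibroblast markers had a median of 0.20 over 6 members, from -0.43 for Foxc1 to 0.67 for Col1a2. Lymphocyte, ependymal, erythroid and cohesin lists had 3, 4, 1 and 3 compared members and are not summarised. The part of cell composition in the differences of the other lists was not tested.

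Genes of the p53 axis had a median of -0.32, with 1 of 10 above 0, and 0.04 with the gene-end median taken off and 0.13 scaled over all own peaks. Bbc3 stood at 96.4 CPM in PDGFB-WT and 146 in Control (-0.80, -0.97 to -0.64), and Cdkn1a at 89.7 and 130 (-0.74, -0.93 to -0.58). The internal starts printed above are part of these sums. Btg2, an antiproliferative gene, stood at 111 and 149 CPM (-0.64, -0.76 to -0.45). The member above was Zmat3, an RNA-binding p53 target, at 32.8 and 8.44 CPM (1.75, 1.37 to 2.14), with 62.5% of its counts in 1 region and 0.73 without it. With barcodes weighed alike the list median was -0.56.

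Chromosome segregation genes were at the all-gene median (list median -0.00, 4 of 8 above). Nuf2, a kinetochore subunit, was highest (110 and 31.8 CPM, 1.59, 1.38 to 1.79) and Incenp, of the chromosomal passenger complex, lowest (47.8 and 66.2 CPM, -0.68, -0.91 to -0.43). DNA damage genes had a median of 0.11 over 5 members, from -0.54 for Msh6 to 0.26 for Mre11a. Chromatin regulators and IDH genes had a median of -0.23, with 4 of 13 above and 1 past 2-fold, a share close to the 7.16% of all genes. The polycomb gene Eed was lowest (104 and 139 CPM, -0.63, -0.80 to -0.47). Idh1 stood at 93.4 and 111 CPM (-0.46, -0.63 to -0.28) and Idh2 at 144 and 103 (0.28, 0.12 to 0.42). Hypoxia and glycolysis genes had a median of -0.19, with 6 of 14 above, from Ndrg1 (16.7 and 46.0 CPM, -1.67, -2.05 to -1.26) to Pfkp (15.8 and 5.57 CPM, 1.29, 0.69 to 1.74).

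**Figure D5:**
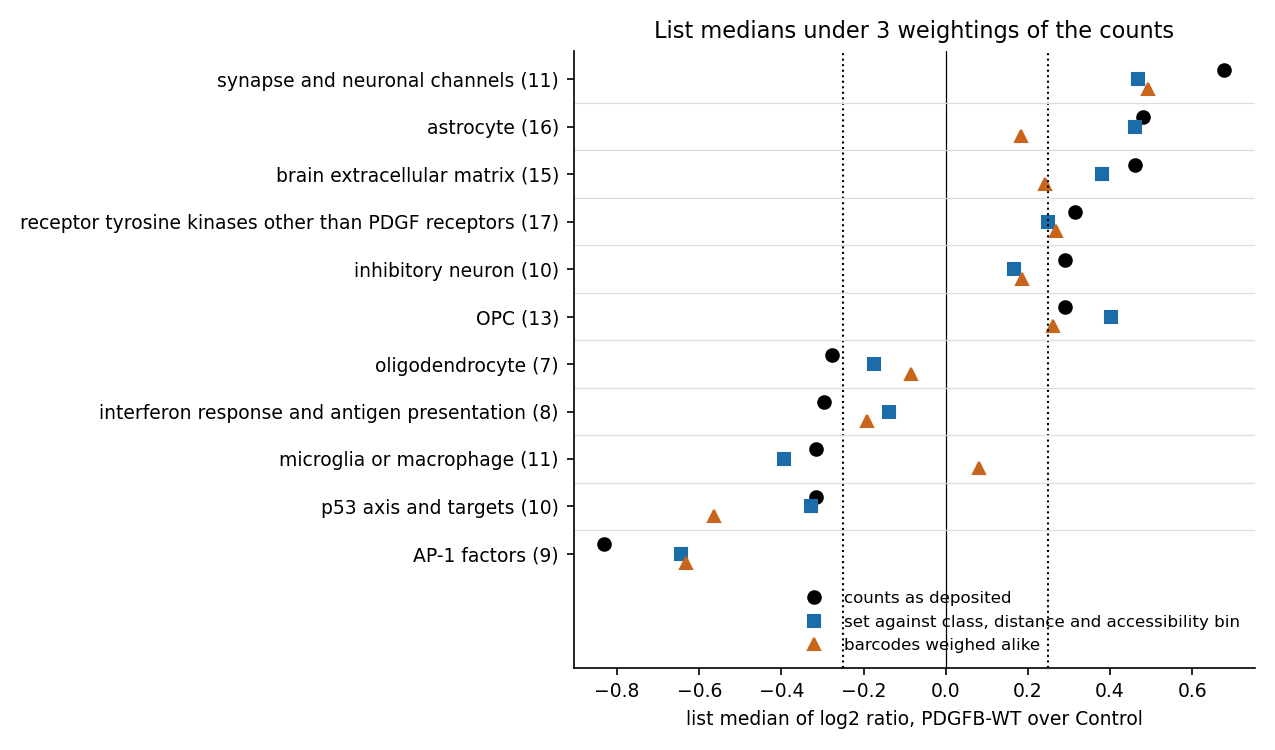
Medians of the 11 lists that lay at least 0.25 from the all-gene median (dotted lines), as log2 ratio of PDGFB-WT over Control, from counts as deposited, with regions set against others of the same class, distance and accessibility, and with barcodes weighed alike. The AP-1 and synapse medians keep their side beyond 0.25 in all 3, and the microglia or macrophage median crosses 0, from -0.32 to 0.08.

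Along chromosomes the ratio was nearly flat at large scale. Medians per chromosome lay between -0.07 (chromosome 17) and 0.08 (chromosome 13), apart from chromosome Y with 6 compared regions (-0.66). Among 1087 windows of 1 Mb with at least 10 compared regions, the quartiles of the window median were -0.10 and 0.14, 7 windows had a median higher past 2-fold and 0 lower. The highest lay at the start of the chromosome 9 assembly, from 3 to 4 Mb (median 2.76, 8 of 12 regions higher and 1 lower). No region was removed as a repeat or mapping artefact, and whether this window holds such regions was not tested. Next came windows at Kcnn2 (chromosome 18, 1.36), Asic2 (chromosome 11, 1.32), Ntm (chromosome 9, 1.27) and Ptprz1 (chromosome 6, 1.16). The lowest were at Mdm1 and Dyrk2 (chromosome 10, -0.67), at Glo1 (chromosome 17, -0.59), at Rbpj (chromosome 5, -0.51), at Reep3 (chromosome 10, -0.47) and from P2rx1 to Aspa (chromosome 11, -0.41).

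In the window at Glo1, a detoxifying glyoxalase gene, 4 of 10 regions were lower past 2-fold and 1 was higher. The start of Glo1 stood at 40.4 CPM in PDGFB-WT and 148 in Control (ratio -1.82, -2.06 to -1.56), and a region in Btbd9 at 44.0 and 165 (-1.85, -2.10 to -1.62). The ratio was -2.07 (-2.81 to -1.43) for a region in Dnah8 and -1.15 (-1.78 to -0.46) for a further region in Btbd9. In the neighbouring Zfand3 the start stood at 83.5 and 124 CPM (-0.52, -0.70 to -0.33), short of 2-fold, and gene-body regions at 0.27 and 1.64.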

How the data were processed

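Single-cell ATAC-seq was deposited as a matrix of counts per peak and barcode, with the peaks and barcodes of each library. The authors made these counts with cellranger-atac 2.1.0, per the file headers. Cell Ranger 8 and the build mm10 are named in the submitters' processing notes. The deposited counts were mostly even numbers, since both cut ends of a fragment fall in 1 peak, and a fragment was taken as (count + 1) divided by 2, rounded down, per peak and barcode. Each library's peaks were called separately.

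Barcodes with at least 200 counts were summed. No doublet caller was run and no barcode was removed as a doublet, so sums include any doublets. Peaks of both libraries on chromosomes 1 to 19, X and Y were merged where they overlapped, and regions holding a peak of both were kept. None of these regions was removed as a repeat or mapping artefact, so single regions with very high counts may include some. Genes were the 21887 protein-coding genes of RefSeq GRCm38.p6, the assembly of mm10. Intervals are exact 95% Clopper-Pearson intervals of the PDGFB-WT share of fragments and cover counting error only. Lists were summarised with at least 5 compared members and described as away from the all-gene median at 0.25 or more. Genes were named by rule as the 15 highest and 15 lowest with at least 3 regions, and regions as the 6 highest and 6 lowest intergenic and gene-body ones. Windows were the 5 highest and 5 lowest of 1 Mb with at least 10 compared regions.

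The members and lists were chosen with earlier results of these data known. The 15 alternatives listed for each result and 2 added after seeing the data are described in the closing section. The steps were tested on simulated data. Python 3.11.15, numpy 2.4.6, pandas 2.3.3, scipy 1.17.1 and matplotlib 3.10.9 were used. The PDGFB-NLS library was not used, apart from its peaks in the count of merged regions of the series. Some genes that the naming rule covers are not reported here.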

Additional observations from a re-analysis of the deposited data

How the results depend on the processing

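No paired analysis was possible because there was 1 library a side. The AP-1 and synapse list medians kept their direction and their side of 0.25 under all 17 alternatives, and the OPC, astrocyte and matrix medians under 16 of 17. The causes of the changes below were not tested, apart from smaller or larger sets of regions where a minimum moved.

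Scaled over all own peaks with no median taken off, lower regions numbered 481 (65 at gene ends, 211 in gene bodies, 205 intergenic), genes 1270 higher and 10 lower, and the oligodendrocyte, microglia, p53 and interferon medians turned to 0.17, 0.13, 0.13 and 0.15. With the gene-end median taken off, genes numbered 1066 and 16 and the same medians turned to 0.078, 0.040, 0.038 and 0.059. With no median taken off, genes numbered 762 and 28 and the same medians were -0.069, -0.11, -0.11 and -0.089.

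With a minimum of 30 fragments, 6673 regions were higher and 1544 lower (562 and 277 at gene ends, 3325 and 702 in gene bodies, 2786 and 565 intergenic). With a minimum of 150 fragments there were 344 and 114 (51 and 22, 150 and 43, 143 and 49), 277 higher and 50 lower genes, and oligodendrocyte and microglia medians of -0.20 and -0.24.

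The gene-end share of counts was 5.38 percentage points larger in Control. With each region and barcode capped at 1 this was 3.33, 36 genes were lower, the oligodendrocyte, inhibitory and interferon medians were -0.11, 0.18 and -0.19, and Gtpbp4 and Cdk8 turned to 0.54 and 0.52. With barcodes of at least 1000 counts it was 4.96, 1690 regions were higher (218, 815 and 657 by class), 209 intergenic regions were lower, and the inhibitory and interferon medians were 0.24 and -0.23. With barcodes weighed alike it was 7.77, lower regions were 243 at gene ends and 243 in gene bodies, 196 genes were higher, and the oligodendrocyte, astrocyte, inhibitory, interferon and matrix medians were -0.084, 0.18, 0.19, -0.19 and 0.24, while microglia turned to 0.082. Without the 5% of barcodes with most counts it was 5.30, regions numbered 1957 and 532 (223 higher at gene ends, 962 and 236 in gene bodies, 772 and 202 intergenic), genes 297 and 56, and the oligodendrocyte and microglia medians -0.18 and -0.22. Per kb of own peaks it was 5.19 and the p53 median -0.22, and with a gene-end window of 2000 bp it was 5.50.

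Without each gene's leading region (added after seeing the data), 219 genes were lower, the OPC and receptor kinase medians were 0.10 and 0.24, and Gtpbp4, Myl12b, Zc3h7a, Camk1d and Cdk8 turned to 0.12, 0.055, 0.13, 0.47 and 1.06. Set against class, distance and accessibility (also added), the oligodendrocyte, inhibitory, interferon and receptor kinase medians were -0.17, 0.17, -0.14 and 0.25. With Control thinned, the interferon and receptor kinase medians were -0.23 and 0.15. Without the 1% of regions with most counts, Gtpbp4 and Cdk8 turned to 0.25 and 1.19.

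PDGFB-WT depth limits what was compared, since 17821 common regions held too few fragments. Regions with a peak in 1 library alone were not analysed here, and they hold 18.2% of Control counts against 3.31% in PDGFB-WT.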
